A study of Mus musculus with 11 samples.

Results

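Collagen genes were taken as every row of the promoter and gene tables of the amphetamine comparison on chromosomes 1 to 19 whose symbol is Col, a number, a and a number. The rule found 42 collagens among the 25802 genes and 33 collagens among the 24391 promoters of these tables. Col4a5 and Col4a6, the 2 members on the X chromosome, were left out by the rule. The 42 genes comprise 11 fibrillar collagens, 6 basement membrane collagens and 25 others, and the 33 promoters comprise 11, 6 and 16. For 9 of the other collagens (Col6a3, Col6a4, Col6a6, Col8a1, Col10a1, Col17a1, Col20a1, Col22a1 and Col28a1) only the gene body was analysed.

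DNA methylation had been measured by reduced representation bisulfite sequencing (RRBS) in the pancreas of 11 wild type C57BL/6N mice on postnatal day 0. In this assay DNA is cut at fixed short sites, here by MspI and TaqI, and bisulfite treatment makes unmethylated cytosines read as thymine while methylated ones stay cytosine. The amphetamine group was 5 mice (3 females and 2 males) whose dams were injected with 10 mg/kg amphetamine on embryonic days 14.5, 15.5 and 16.5. The control group was 6 mice (3 females and 3 males) from dams given saline. The labels used here do not tie a mouse to its dam, so that the p-values below measure the spread between mice, some of which may be littermates. A level is the share of methylated reads, in percent, given as the mean of a group, and the tissue was taken whole, so that a partly methylated region and a mixture of cell types with different levels cannot be told apart. Promoters of acinar markers, the genes of the enzyme-secreting cells that fill the pancreas, ran from 3.56 to 90.3% in controls over the 5 of 11 listed genes that were measured, and expression, which would show the cell types, was not analysed here.

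Collagens are extracellular proteins whose chains wind around each other into a rope-like helix. Fibrillar collagens line up into the fibres that give connective tissue its strength, and in the pancreas they are made mainly by mesenchymal cells such as fibroblasts and stellate cells. Basement membrane collagens form the sheet under epithelia and around vessels, on which acinar, ductal and endocrine cells rest. The others include the beaded filaments of type VI, short-chain networks, fibril-associated collagens (FACIT), transmembrane collagens and the anchoring fibrils of type VII. Promoters rich in CpG, the dinucleotide that carries the methyl group, are commonly unmethylated, CpG-poor promoters are often methylated, and gene bodies are commonly methylated.

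The range of CpG content among collagen promoters is shown by the 250 bases before the RefSeq start of 6 genes (build GRCm38.p6, each read in the direction of the gene), with every CpG in capitals. RefSeq windows were matched for 33 of the 42 collagens. In Col4a1, Col5a1, Col9a1 and Col13a1 a RefSeq start is also recorded 63, 44, 21 and 98 bp further upstream. The last printed bases of these 4 genes lie downstream of that start. Those printed are Col3a1 (chr1:45311288-45311537, plus strand) and Col9a1 (chr1:24177360-24177609, plus strand), CpG-poor promoters of which Col9a1 had a high level and Col3a1 an intermediate one that ran from 0 to 100% over mice, Col1a2 (chr6:4505368-4505617, plus strand) because this stretch lies wholly downstream of the deposited promoter region, so that its CpGs are no part of the promoter level below, and Col4a1 (chr8:11312827-11313076, minus strand), Col5a1 (chr2:27886175-27886424, plus strand) and Col13a1 (chr10:61979109-61979358, minus strand) as CpG-rich promoters with low levels.
Col3a1: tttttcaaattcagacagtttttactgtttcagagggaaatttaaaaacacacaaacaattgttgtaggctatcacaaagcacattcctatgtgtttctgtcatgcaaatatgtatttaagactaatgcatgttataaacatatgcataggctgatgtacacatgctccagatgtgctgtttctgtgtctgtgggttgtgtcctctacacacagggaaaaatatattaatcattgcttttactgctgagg
Col9a1: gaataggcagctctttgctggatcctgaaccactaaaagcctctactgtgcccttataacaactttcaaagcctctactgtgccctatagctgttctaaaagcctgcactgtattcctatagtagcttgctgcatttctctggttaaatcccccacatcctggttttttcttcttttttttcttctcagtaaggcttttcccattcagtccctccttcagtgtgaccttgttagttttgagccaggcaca
Col1a2: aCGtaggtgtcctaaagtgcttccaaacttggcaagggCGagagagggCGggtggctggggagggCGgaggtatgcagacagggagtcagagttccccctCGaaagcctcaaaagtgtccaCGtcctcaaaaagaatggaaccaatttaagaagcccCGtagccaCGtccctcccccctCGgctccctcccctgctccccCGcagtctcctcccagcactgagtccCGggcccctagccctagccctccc
Col4a1: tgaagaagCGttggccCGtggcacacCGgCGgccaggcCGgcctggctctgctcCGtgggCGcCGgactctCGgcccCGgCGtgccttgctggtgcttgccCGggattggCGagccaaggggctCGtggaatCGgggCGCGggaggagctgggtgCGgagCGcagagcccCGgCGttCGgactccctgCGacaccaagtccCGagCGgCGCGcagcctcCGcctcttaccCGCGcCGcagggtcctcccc
Col5a1: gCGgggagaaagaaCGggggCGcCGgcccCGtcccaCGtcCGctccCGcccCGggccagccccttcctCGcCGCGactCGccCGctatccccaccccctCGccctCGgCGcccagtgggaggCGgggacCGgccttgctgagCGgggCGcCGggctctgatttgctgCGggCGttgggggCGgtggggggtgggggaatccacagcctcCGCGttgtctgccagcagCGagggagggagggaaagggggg
Col13a1: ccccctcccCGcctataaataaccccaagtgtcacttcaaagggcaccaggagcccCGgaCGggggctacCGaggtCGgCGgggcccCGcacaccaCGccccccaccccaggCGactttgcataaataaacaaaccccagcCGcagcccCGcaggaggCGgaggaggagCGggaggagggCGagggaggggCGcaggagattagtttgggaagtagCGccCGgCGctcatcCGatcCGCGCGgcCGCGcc
These stretches hold 0 CpGs in Col3a1, 0 in Col9a1, 11 in Col1a2, 31 in Col4a1, 28 in Col5a1 and 24 in Col13a1. The levels of Col3a1 and Col9a1 therefore come from other CpGs of their promoter regions. In Col9a1, 6 of the 17 CpGs that reads can reach lie within 500 bp of the start, and the median position of the 17 is −911 bp. Over the 36 RefSeq windows of collagens, each from 250 bases before to 50 after a start, the letters GGGCGG (the GC box, searched on both strands) were found in 21 windows (58.3%), against 35.7% of all 32851 windows. The CCAAT box was found in 12 (33.3%, against 37.4%), and the TATA box letters TATAAA in 5 (13.9%, against 13.6%), those of Col3a1, Col10a1, Col11a2, Col13a1 and Col17a1. The 6 windows of basement membrane collagens held no TATAAA. These are matches of letters and were not tested.

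The deposited promoter regions run from 1500 bp before to 500 bp after a gene's start. Their level in controls had a median of 20.9% over the 11 fibrillar collagens, 3.47% over the 6 basement membrane collagens and 6.72% over the 16 others, beside 6.65% over all 23145 autosomal promoters and 3.40% over the protein-coding ones. By the mean the fibrillar and other collagens lay closer together, and the fibrillar below all autosomal promoters. The means were 20.3% in the fibrillar, 3.68% in the basement membrane and 18.0% in the other collagens, beside 30.6% over all autosomal and 16.0% over protein-coding promoters. The fibrillar median was the level of 1 gene in the middle of the order, and it was 4.87% with Col1a2 at the tile of its RefSeq start, an alternative added after seeing the data. All 6 basement membrane promoters were under 10% (2.87 to 5.91%), as were 5 of the 11 fibrillar and 9 of the 16 other promoters. These are descriptions of genes and carry no test between the classes.

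Of the fibrillar promoters, 6 of 11 lay between 10 and 60% in controls, among them those of collagen types I and III, which form the main fibres. Col1a1, which encodes an alpha chain of type I collagen, ranged from 23.1 to 45.8% over the control mice around a mean of 37.9 ± 8.94% (SD, n = 6) and from 19.1 to 41.8% around 27.9 ± 8.58% (SD, n = 5) after amphetamine. Col1a2, which encodes its partner chain, was at 22.1 ± 16.0% in controls (2.82 to 48.5%) and at 17.9 ± 9.73% after amphetamine (7.63 to 32.9%). The ranges of the groups overlapped in both genes. Col3a1, the chain of type III collagen that shares fibres with type I, was at 50.6 ± 45.2% in controls and 45.0 ± 40.7% after amphetamine. Single mice of each group lay at 0% and at 100% in Col3a1, whose region holds 5 CpGs that reads can reach, with a mean coverage of 45.3 and 50.2 reads summed over CpGs and a lowest of 10 and 1. Col24a1, a minor fibrillar collagen, and Col5a2, a chain of type V collagen that sets fibre width, spread as widely. Col24a1 was at 51.4 ± 43.5% in 5 control mice with reads and 35.8 ± 37.9% in 5 amphetamine mice. Col5a2 was at 28.0 ± 48.3% in 4 control mice and 18.5 ± 37.0% in 4 amphetamine mice, of which 1 at 74.0% held all the methylation. In these 3 promoters the lowest mouse of each group was at 0% and the highest at 74.0 to 100%. Col11a2, a chain of type XI collagen of cartilage, had 20.9 ± 9.57% in controls.

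The remaining fibrillar promoters were low. Col2a1, the main collagen of cartilage, was at 4.87% in controls, Col11a1 at 2.79%, Col5a3 at 2.28%, Col27a1 at 1.71% and Col5a1 at 0.544%. The low set thus holds partners of the high one, since Col5a1 and Col5a2 encode chains of the same type V molecule and Col11a1 and Col11a2 chains of type XI.

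Of the basement membrane collagens, Col4a1 and Col4a2 encode the chains of the ubiquitous type IV network, and Col4a3 and Col4a4 chains of the network best known from kidney glomeruli. Each pair lies head to head, with starts 21 bp apart on chromosome 8 and 72 bp apart on chromosome 1, so that the promoter regions share 978 bp and 1071 bp. The rows of a pair were equal in all 15 columns of levels, spread, mice and coverage, and each pair is therefore 1 measurement. The pair Col4a1 and Col4a2 was at 2.87 ± 2.02% in controls (0.543 to 6.14%) and 2.81 ± 2.04% after amphetamine (1.46 to 6.40%), at a coverage of 353.2 and 365.0. The pair Col4a3 and Col4a4 was at 3.50 ± 4.19% and 6.38 ± 7.34%. Col15a1 and Col18a1, which bridge basement membranes to the matrix beneath and release anti-angiogenic fragments, were at 3.44 ± 4.08% and 5.91 ± 7.23% in controls.

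The others held both ends of the order of 33 promoters. Col9a1, a FACIT chain that decorates cartilage fibres, was highest, from 78.9 to 100% over control mice (92.6 ± 8.03%) and from 48.0 to 90.6% after amphetamine (79.7 ± 18.1%). Its partner chains of type IX were far lower, with Col9a2 at 6.51 ± 6.56% and Col9a3 at 0% in the 5 control mice with reads. Col6a1, a chain of the beaded filament, came next at 63.9 ± 41.6%, but with reads in 5 control and 4 amphetamine mice and a coverage of 13.5 and 18.0. Of the 8 CpGs that reads can reach in Col6a1, 3 lie within 500 bp of the start. Col13a1, a transmembrane collagen at cell adhesions, was at 0% in all 6 control mice. A level of 0% allows up to 0.612% in Col13a1, with 490 reads summed over CpGs and mice, and 1.62% in Col9a3, with 185, as limits of counting error only (3 reads of the sum). Neighbours in the order from Col14a1 (6.92%) down to Col27a1 (1.71%) differed by less than the control SD of either promoter.

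**Figure D1:**
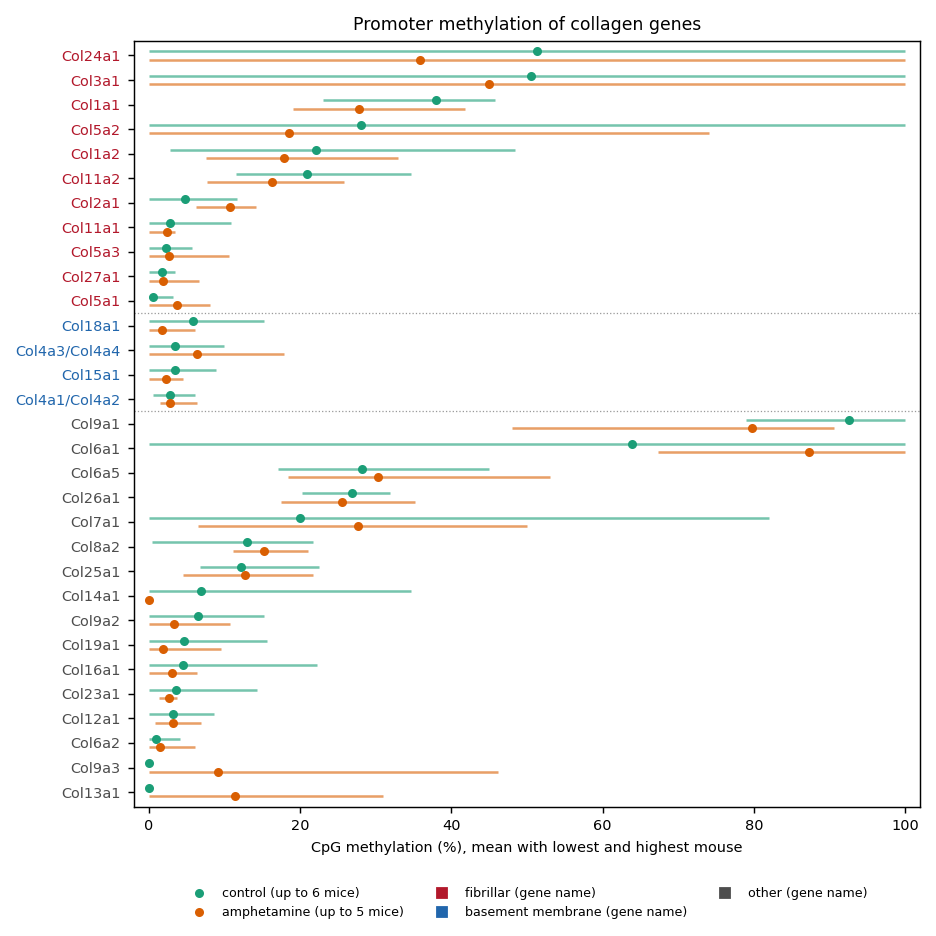
Promoter methylation of each collagen on the x axis in percent, with the mean of a group as a point and its lowest and highest mouse as the ends of a line, control in green and amphetamine in orange, and gene names coloured by class; the head-to-head pairs are drawn once. The 6 basement membrane collagens lie under 10% in control means, while Col24a1, Col3a1, Col5a2 and Col6a1 have control mice at both 0 and 100%.

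Promoters were split by whether they overlap a CpG island of the deposited island table. The 18 collagen promoters with such an island had a control median of 3.52% (0 to 26.9%), and the 15 without had 22.1% (2.28 to 92.6%). Over all autosomal promoters the medians were 2.61% with an island and 73.7% without, and 55.4% of them had an island, as did 54.5% of collagen promoters. Of the 8 fibrillar promoters without an island the median was 25.1%, and of the 3 with one (Col2a1, Col5a1 and Col27a1) it was 1.71%. The observed to expected ratio of CpG, which compares the number of CpGs with that given by C and G content, had a median of 0.314 in fibrillar, 0.496 in basement membrane and 0.419 in other collagen promoters. Across 31 collagen promoters, with each shared region counted once, the level was lower where this ratio was higher (Spearman −0.56, Pearson −0.55), and across all autosomal promoters Spearman was −0.69. These points share libraries and base composition, and the correlation is a description.

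**Figure D2:**
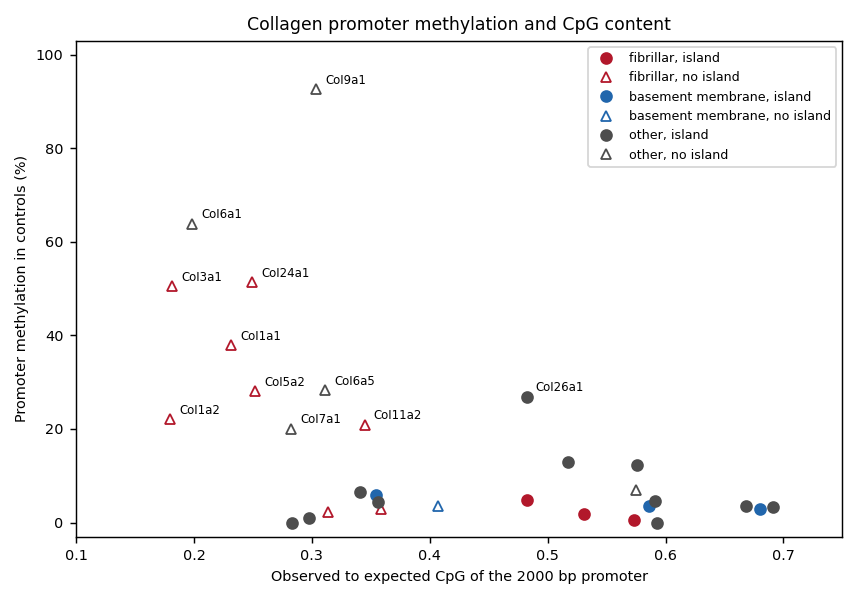
Control promoter methylation in percent (y axis) against the observed to expected CpG ratio of the 2000 bp promoter (x axis), 1 point per collagen promoter with shared regions drawn once, filled circles with and open triangles without a CpG island, coloured by class. Every promoter above 28% in controls is an open triangle with a ratio under 0.35; Col26a1 is the highest with an island, at 26.9%.

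The start used for a promoter matters to its level in some collagens. The RefSeq start of Col1a2 lies 804 bp downstream of the start in the tables and so beyond the deposited promoter region. The 5000 bp tile that holds this start (chr6:4505001-4510000) was at 2.01 ± 3.15% in controls, against 22.1% for the promoter region. Col9a1 also has a RefSeq start far downstream, at position 24195203 of chromosome 1. Its tile was at 54.3 ± 12.5% in controls, against 92.6% for the tile at the upstream start, which has the levels of the promoter region. Col18a1 was at 9.35% in the tile of its upstream start and 52.7% in that of the internal one.

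Gene bodies of collagens were methylated at intermediate to high levels. The control median was 66.8% over the 42 genes, 57.9% over the fibrillar, 65.6% over the basement membrane and 73.9% over the other collagens, beside 51.3% over all autosomal genes and 45.4% over protein-coding ones. All 6 type VI genes, 3 of them a cluster on chromosome 9, lay between 73.9 and 84.1%. The basement membrane genes ran from Col15a1 at 57.8 ± 7.18% through Col18a1 (62.6%), Col4a3 (64.8%), Col4a2 (66.4%) and Col4a1 (66.6%) to Col4a4 at 74.2 ± 2.63%. The fibrillar genes ran from Col27a1 (49.8 ± 1.43%), Col1a1 (50.7%), Col1a2 (50.9%) and Col2a1 (51.2%) through Col3a1 (57.3%), Col5a2 (57.9%), Col11a1 (59.4%), Col5a3 (61.8%) and Col5a1 (62.5%) to Col11a2 (73.1%) and Col24a1 (84.7 ± 3.30%). The lowest of the 42 were Col9a3 (26.2%), Col8a2 (29.4%), Col9a2 (33.7%) and Col12a1 (43.8%), and the highest was Col10a1, the collagen of growth plate cartilage, at 93.9 ± 8.26%. A gene body here includes the CpG-rich start, which weighs less in a long gene. Collagen genes had a median length of 110900 bp, against 15220 bp over all autosomal genes and 21860 bp over protein-coding ones. By class it was 45020 bp in the fibrillar, 124800 bp in the basement membrane and 104600 bp in the other collagens. The part of length in these levels was not tested. In 5000 bp tiles, the tile with the start had a control median of 14.1% over 38 collagens, the next tile 67.0% over 30 and the one after 83.1% over 29, beside 8.79, 75.0 and 81.2% over protein-coding genes.

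Among gene bodies with a coverage of at least 250 in both groups, mice of 1 group differed most in 3 fibrillar collagens. The SD within groups was 11.7 points in Col1a2, 10.3 in Col3a1 and 9.50 in Col5a2, against a median of 4.33 points over 40 collagens and 4.29 over 14876 autosomal genes. These SDs exceed those of 97.5, 95.3 and 93.5% of these genes. Single mice ran from 35.4 to 71.1% in Col1a2, from 46.3 to 73.7% in Col3a1 and from 45.7 to 71.4% in Col5a2. Col1a1 had 7.31 points, and Col27a1 the smallest spread of the collagens with 1.31. Coverage was low beside that of other collagens in Col1a2 (271.0 in controls), Col5a2 (302.7) and Col3a1 (505.2), against a median of 1128, and its part in the spread was not tested.

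**Figure D3:**
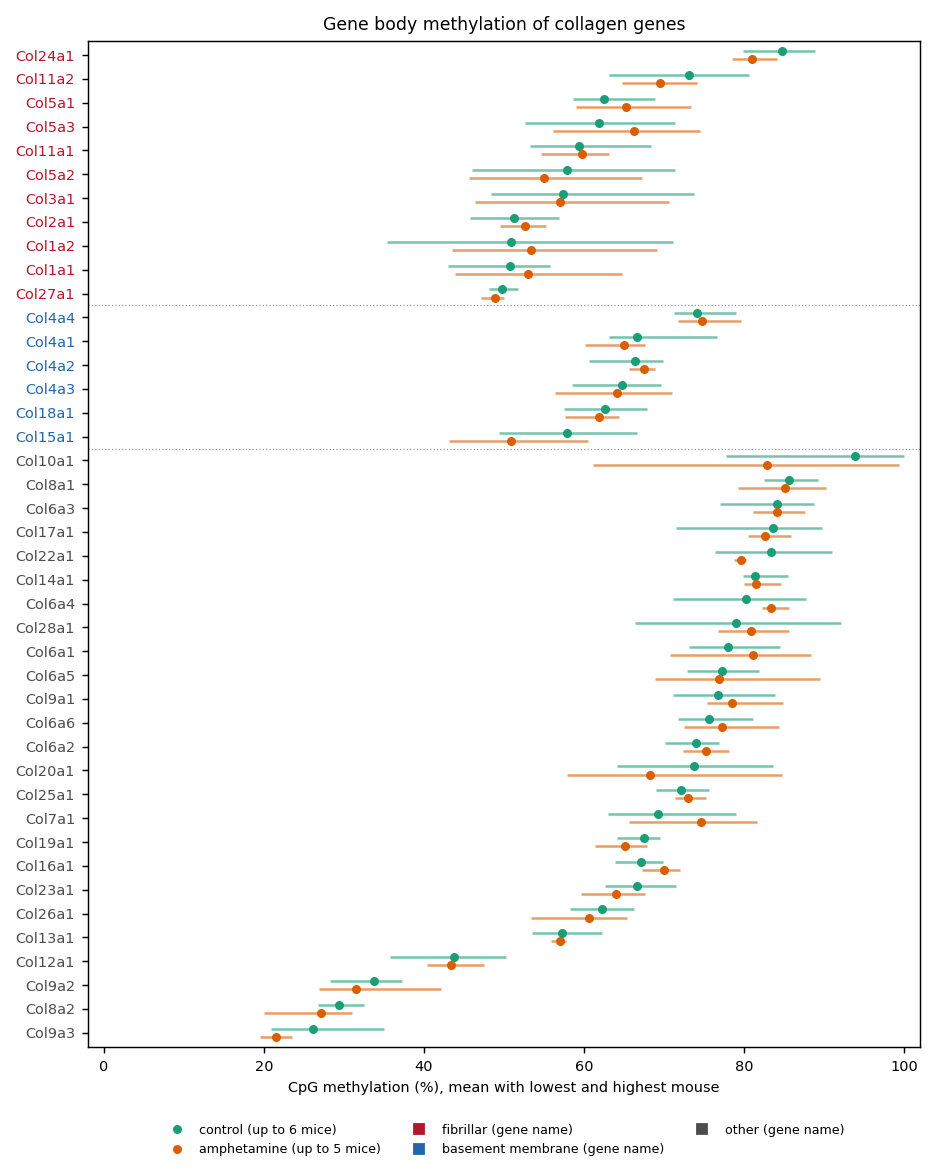
Gene body methylation of the 42 collagens on the x axis in percent, with the group mean as a point and the lowest and highest mouse as the ends of a line, control in green and amphetamine in orange, gene names coloured by class. The groups overlap in every gene, and Col1a2, Col3a1 and Col5a2 have long lines in both groups.

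The first comparison asked whether collagen methylation differed between mice of amphetamine-treated and control dams. No collagen promoter passed an adjusted p of 0.05, where 0.0123% of all promoters did (3 of 24360). At an unadjusted p under 0.05 there were 3 of 33 collagen promoters, against 4.56% of all promoters. All 3 were higher after amphetamine, and their adjusted p was 0.93. On the log2 odds scale the count was 3, against 8.82% of all promoters, but Col9a3 took the place of Col2a1 beside Col5a1 and Col13a1. In Col9a3 1 amphetamine mouse was at 46.1% and all other mice with reads were at 0%. In the 28 collagen promoters with reads in all mice the groups overlapped, where they did not in 0.407% of autosomal promoters. Of the 33 differences, 14 were above and 19 below 0, with a median of −0.08 points. The medians were −4.23 points in the fibrillar, −0.06 in the basement membrane and 0.18 in the other collagens, beside 0 over all autosomal promoters. The fibrillar median was the value of 1 gene, Col1a2 (interval −21.8 to 13.3), whose promoter region misses its RefSeq start. The tile at that start was higher by 5.6 points after amphetamine. The next fibrillar promoter in the order, Col11a1, was at −0.325 points. Among the lower ones, Col3a1, Col5a2 and Col24a1 had control mice at both 0 and 100%. The class medians were not tested.

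The 3 promoters with an unadjusted p under 0.05 on the methylation scale were those of Col2a1, Col5a1 and Col13a1. In Col2a1 (chr15:98004196-98006195), amphetamine mice ran from 6.22 to 14.2% and control mice from 0 to 11.7%. The means were 10.8 ± 3.24% (SD, n = 5) and 4.87 ± 4.00% (SD, n = 6), a difference of 5.91 points (95% interval 1.15 to 10.7; limma, adjusted p = 0.93). The ranges overlapped between 6.22 and 11.7%. The CpG island at this start (chr15:98004394-98004893) was at 7.21 ± 1.58% against 2.49 ± 3.31% (limma, adjusted p = 0.924). Reads were deeper in amphetamine mice in Col2a1, with a coverage of 335.0 against 176.2, whose part in the difference was not tested.

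In Col5a1 (chr2:27884925-27886924), amphetamine mice ran from 0 to 8.05% and control mice from 0 to 3.27%, with 1 control mouse above 0%. The difference was 3.17 points (0.414 to 5.92; limma, adjusted p = 0.93) at a coverage of 301.2 and 311.2. Its island was at 1.82 ± 1.49% against 0.766 ± 0.830% (limma, adjusted p = 0.924). In Col13a1 (chr10:61978609-61980608), amphetamine mice ran from 0 to 31.0% with a mean of 11.4 ± 13.3% and every control mouse was at 0%, at a coverage of 155.8 against 81.7, whose part was not tested either. The difference was 11.4 points (0.251 to 22.5; limma, adjusted p = 0.93). All 5 male mice, from both groups, were at 0% in this promoter. Every level above 0% therefore lay among the 3 amphetamine females. On the log2 odds scale the adjusted p of Col13a1 in limma was 0.0492, under the threshold. That fit took the log2 odds of each group mean and rescaled the SD at that mean. It did not transform single mice, several of which were at 0%, and is an approximation here. The controls of Col13a1 had an SD of 0, so that this promoter could not be fitted under the filter on an SD above 0. The island over the Col13a1 start (chr10:61978050-61979302) was at 1.15 ± 0.999% against 0.619 ± 1.07% (limma, adjusted p = 0.924). It overlaps the promoter region only in part. Its coverage of 668.8 and 460.0 exceeded that of the whole region, so that it reads largely other CpGs.

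The larger differences elsewhere lay within wide intervals. Among promoters with reads in all mice and a coverage of at least 10, the largest beside Col13a1 were Col9a1, lower by 12.9 points after amphetamine (interval −30.0 to 4.28), and Col1a1, lower by 10.1 points (−24.0 to 3.81). The interval of the pair Col4a1 and Col4a2 ran from −2.68 to 2.56 points. Over collagen promoters the 95% interval reached a median of 7.74 points to each side of the difference, 11.4 in the fibrillar and 5.68 in the basement membrane collagens. This reach is that of an unadjusted interval and no limit of detection. The smallest difference that could pass the adjusted threshold at this number of mice was not determined.

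**Figure D4:**
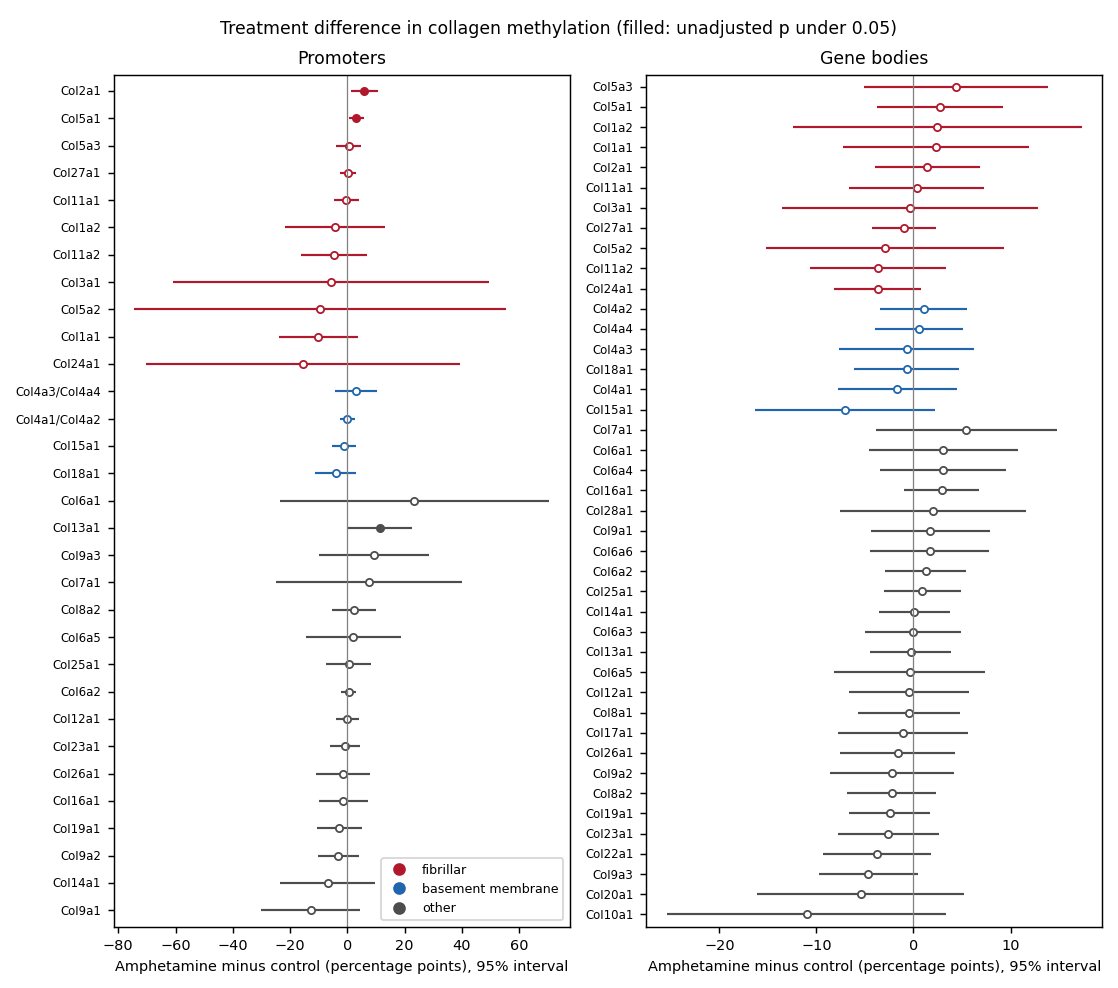
Amphetamine minus control methylation in percentage points (x axes, which differ in scale) for promoters, with shared regions drawn once, and gene bodies, with 95% intervals as lines and points coloured by class, filled at an unadjusted p under 0.05. The filled points are Col2a1, Col5a1 and Col13a1, all among promoters; every gene body interval spans 0.

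No collagen gene body passed an adjusted p of 0.05 (0.0194% of all genes did), and 0 of 42 had an unadjusted p under 0.05, against 4.34% of all genes. The constant-prior and log2 odds fits also called 0, and on the log2 odds scale 0 had an unadjusted p under 0.05, against 6.38% of all genes. The groups overlapped in all 42, where they did not in 0.322% of autosomal genes. There were 18 higher and 24 lower means after amphetamine, with a median difference of −0.37 points. The largest differences were in Col10a1, at 82.8 ± 14.4% after amphetamine and 93.9 ± 8.26% in controls (−11.0 points, interval −25.4 to 3.36), Col15a1 at 50.8 ± 6.79% and 57.8 ± 7.18% (−7.02 points, −16.3 to 2.24), and Col7a1, the anchoring fibril collagen, at 74.7 ± 7.86% and 69.2 ± 6.41% (5.46 points, −3.87 to 14.8). The smallest p-value was that of Col9a3, at 21.6 ± 1.75% after amphetamine and 26.2 ± 4.998% in controls (limma, adjusted p = 0.977). The 95% interval reached a median of 6.17 points to each side over collagens and 5.80 in the basement membrane collagens.

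Finer regions were read in the same way. Of 24 CpG islands at collagen promoters or genes, 0 passed an adjusted p of 0.05 (0.00674% of all islands did), 1 had an unadjusted p under 0.05 (the Col2a1 island above, against 3.99% of all islands), and none of the 20 with reads in all mice separated the groups (0.447% of autosomal islands). Of 583 tiles of 5000 bp that overlap collagen genes, 0 passed an adjusted p of 0.05 (0.0116% of all tiles did) and 21 (3.60%) had an unadjusted p under 0.05, against 4.24% of all tiles. On the log2 odds scale these were 50 collagen tiles, against 9.26% of all tiles, and 2 of the islands, against 9.31% of all islands. By class the 21 tiles were 3 of 128 fibrillar, 6 of 108 basement membrane and 12 of 347 other tiles. In 1 of the 454 collagen tiles with reads in all mice the groups did not overlap, against 0.353% of autosomal tiles.

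That tile lies in the Col4a2 gene, 104.7 kb from its start (chr8:11415001-11420000). The 5 amphetamine mice ran from 53.3 to 66.7% (60.9 ± 5.09%) and the 6 control mice from 87.0 to 100% (95.7 ± 6.68%). Every amphetamine mouse was below every control mouse, with a difference of −34.8 points in the mean (95% interval of amphetamine minus control −44.7 to −24.97; limma, adjusted p = 0.0698). The adjusted p missed the threshold, and it was 0.0161 with a constant prior variance, 0.124 on the log2 odds scale, 0.195 at a coverage of at least 10, 0.320 over tiles with reads in all mice and 0.866 over tiles with an SD above 0 in both groups. Coverage was 47.4 in amphetamine and 23.7 in control mice, with a lowest of 28 and 5, and its part in the difference was not tested. The tile holds 64 CpGs, 19 of them within reach of an enzyme site, and 2 exons of Col4a2, which contain 7 of the 19. The 250 bases with the most reachable CpGs (chr8:11415314-11415563, plus strand, GRCm38), of which 111 are exonic, are shown because the reads of this tile can come from here, again with CpGs in capitals.
Col4a2 tile: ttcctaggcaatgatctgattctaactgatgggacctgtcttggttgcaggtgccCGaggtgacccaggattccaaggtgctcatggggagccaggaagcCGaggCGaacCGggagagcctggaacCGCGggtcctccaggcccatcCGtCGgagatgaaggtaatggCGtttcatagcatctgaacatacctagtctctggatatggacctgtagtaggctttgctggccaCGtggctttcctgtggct
The neighbouring tile, 109.7 kb from the start, went the other way, at 59.0 ± 14.9% after amphetamine (40.0 to 78.6%) and 27.0 ± 21.8% in controls (0 to 60%; limma, adjusted p = 0.955). Another Col4a2 tile with an unadjusted p under 0.05, 34.7 kb from the start, was at 83.3% against 18.3% in 3 mice each. Over the whole Col4a2 gene body the means were 67.5 ± 1.21% after amphetamine and 66.4 ± 3.33% in controls.

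**Figure D5:**
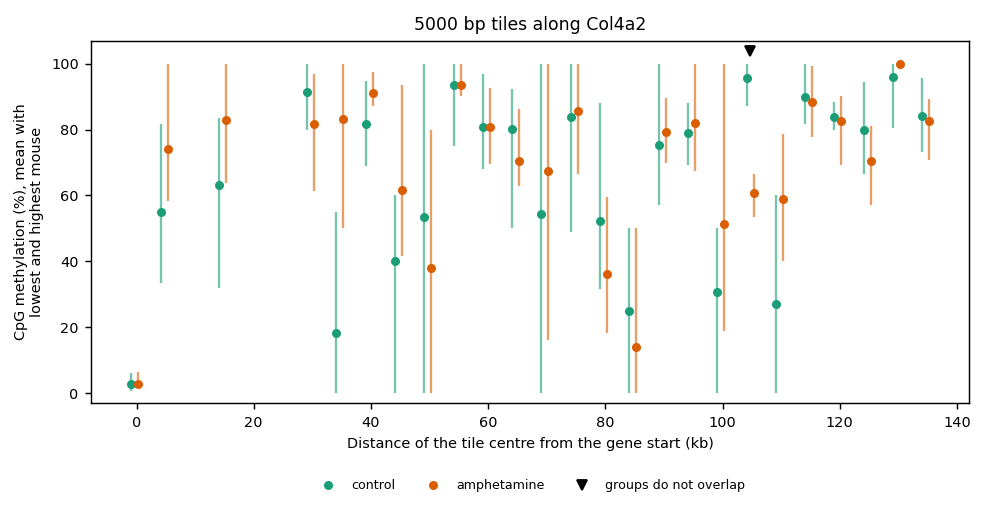
Methylation in percent (y axis) of 5000 bp tiles along Col4a2 by distance of the tile centre from the gene start in kb (x axis), with group means as points and the lowest and highest mouse as line ends, control in green and amphetamine in orange. The start tile is near 3% in both groups, and the triangle marks the tile at 104.7 kb, at 60.9 and 95.7%, where the groups do not overlap.

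Other collagen tiles with small unadjusted p-values shared no single direction. In Col6a6, a type VI chain, a tile 20.7 kb from the start had 97.7 ± 5.11% in amphetamine and 53.9 ± 23.6% in control mice. In Col5a1, a tile 76.1 kb from the start was at 86.0 ± 8.95% and 99.7 ± 0.785%. The latter had an adjusted p of 0.955 in the main scale and 0.0181 on the log2 odds scale. Col19a1, a FACIT collagen, had 3 such tiles, 2 lower and 1 higher after amphetamine. The Col1a2 tile at the RefSeq start was at 7.61 ± 5.34% and 2.01 ± 3.15% (limma, adjusted p = 0.955). Over all 583 tiles, 269 were higher, 303 lower and 11 equal, with a median difference of −0.33 points.

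The second comparison set the 6 females against the 5 males, the same mice as above. No collagen promoter passed an adjusted p of 0.05, against 0.58% of all promoters, a table that includes the X and Y chromosomes. At an unadjusted p under 0.05 there were 2 of 33, against 6.54% of all, and these were the shared region of Col4a3 and Col4a4, which is 1 measurement. It ran from 0 to 6.35% in females (1.70 ± 2.58%, SD, n = 6) and from 0 to 17.9% in males (8.54 ± 6.42%, SD, n = 5), a female minus male difference of −6.84 points (−12.8 to −0.915; limma, adjusted p = 0.671). The same region differed by 2.88 points between amphetamine and control, with an interval that spans 0. No collagen gene body passed an adjusted p of 0.05, against 0.393% of all genes, and 0 of 42 had an unadjusted p under 0.05, against 6.42%. On the log2 odds scale 5 promoters (against 11.1% of all) and 1 gene body (against 8.74% of all) had an unadjusted p under 0.05. The promoters were Col4a3 and Col4a4, again 1 measurement, Col9a3, Col14a1 and Col13a1. In Col9a3 and Col14a1 all females with reads were at 0%, and 1 male, at 46.1 and 34.6%, held all the methylation. Col13a1 was at 9.49 ± 12.8% in females and 0% in all males (limma on that scale, adjusted p = 0.0743). The gene body was that of Col10a1, at 83.0 ± 13.9% in females and 95.8 ± 4.48% in males (limma on that scale, adjusted p = 0.459). Col8a1, a short-chain collagen of vessel walls, came closest, at 87.4 ± 3.07% in females and 83.0 ± 2.83% in males (limma, adjusted p = 0.779).

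Genes that make, bind, cut or surround collagen were read from 4 lists. None of their promoters or gene bodies passed an adjusted p of 0.05 in either comparison. For treatment, the unadjusted p was under 0.05 in 3 of 25 promoters and 2 of 25 gene bodies of collagen biosynthesis and processing, in 0 of 7 and 0 of 10 of collagen receptors, in 1 of 7 and 1 of 10 of collagen breakdown and in 1 of 12 and 1 of 15 of other basement membrane proteins, against 4.56% of all promoters and 4.34% of all genes. The smallest was that of the Serpinh1 promoter, the chaperone that holds procollagen in the endoplasmic reticulum, at 5.45 ± 3.21% after amphetamine and 0.261 ± 0.454% in controls (limma, adjusted p = 0.829, and 0.0304 on the log2 odds scale). Mmp9, a gelatinase that cuts denatured and type IV collagen, had a promoter level of 11.6 ± 5.88% in 4 amphetamine mice with reads (5.56 to 17.9%) and 45.5 ± 24.3% in 6 controls (18.1 to 78.8%), ranges that did not overlap (limma, adjusted p = 0.93). Its mean coverage was 48.8 and 43.3, with a lowest of 0 in amphetamine mice. The groups did not overlap in 0.407% of autosomal promoters with reads in all mice, a set that leaves Mmp9 out. Serpinh1, Mmp9 and Tll1, the gene bodies of Col8a1, Col8a2, Col9a2, Col9a3 and Col12a1 and the single tiles were named after their values were seen. For sex, 1 gene body of collagen biosynthesis (Tll1) had an unadjusted p under 0.05, against 6.42% of all genes, and no promoter of these lists did, against 6.54%.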

How the data were processed

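Reads of RRBS libraries from 11 pancreata were single-end. The authors aligned them to mm10 with Bismark (versions not given in the sources used here), summarized CpGs per region with RnBeads and deposited 1 table for each kind of region and comparison. The deposited methylation fraction of a group is the authors' mean over mice with reads, printed here in percent with the authors' SD, lowest and highest mouse. Coverage, a signal not normalized for depth, is the authors' group mean and is read here as summed over CpGs. Over autosomal promoters its median was 242.4 in amphetamine and 194.7 in control mice. The authors' own differences, quotients, p-values, adjusted p-values and ranks stand in further columns and were not used.

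Values per mouse were not analysed here, so limma's moderated test (limma 3.58.1, R 4.3.3; two-sided, no covariate) was rebuilt from each group's mean, SD and number of mice, with a variance prior trended on the mean. It was fitted on each whole table over regions with reads in at least 2 mice of each group and adjusted by Benjamini-Hochberg over that table. The steps were tested on simulated data. Strand, exons and CpGs came from GENCODE M21 and GRCm38, the same assembly as mm10, and CpGs at most 50 bp from an MspI or TaqI site were counted as reachable by reads. Python 3.11.15 with pandas 2.3.3 was used.

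The collagens, their classes and the lists were chosen with earlier results of these data known. Genes named were the fibrillar and basement membrane collagens, those with an unadjusted p under 0.05, the 3 highest and 3 lowest promoters, the 3 largest treatment differences, groups that did not overlap and head-to-head pairs. Other collagens, regions and list genes were named after their values were seen. Alternatives were a constant prior, log2 odds (offset 0.01), coverage of at least 10, reads in all mice, an SD above 0, chromosomes 1 to 19 and other thresholds.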

Additional observations from a re-analysis of the deposited data

How the results depend on the processing

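No paired analysis was run. Amphetamine and control mice came from different dams, and the labels used here tie no mouse to its dam, so that sexes could not be matched by litter. The deposited columns hold group summaries without replicate numbers, so that leaving out each mouse could not be run. Whether 1 mouse decides a call was therefore not tested. In some promoters the mean, the number of mice and the highest mouse show that 1 mouse held all the methylation of a group. Among them were Col5a1 (mean 0.544%, highest 3.27%) and Col14a1 (6.92%, 34.6%) in controls. After amphetamine they included Col5a2 (18.5%, 74.0%) and Col9a3 (9.23%, 46.1%). The counts of calls did not change with a coverage of at least 10, reads in all 11 mice, an SD above 0 in both groups, chromosomes 1 to 19 or the study's thresholds. On the log2 odds scale there was 1 called collagen promoter (Col13a1, 3.80 on that scale) and 1 called collagen tile (Col5a1, −3.71), where the main fits called 0; with a constant prior variance there was 1 called tile, and at an adjusted p under 0.1 there was 1, both in Col4a2 (−34.8 points). The cause was not tested. At an unadjusted p under 0.05 the counts were 3 collagen promoters, 21 tiles and 1 island for treatment and 2 promoters for sex, which became 50 tiles, 2 islands and 5 sex promoters on the log2 odds scale, while the sex gene bodies went from 0 to 1 on that scale and with a constant prior; for treatment, 3 promoters and 2 gene bodies of collagen biosynthesis, 1 and 1 of collagen breakdown and 1 and 1 of other basement membrane proteins; and for sex, 1 gene body of collagen biosynthesis. With the mean in place of the median, the level of the other collagens was 18.0% in promoters and 68.9% in gene bodies; the fibrillar promoter median was 4.87% with Col1a2 at the tile of its RefSeq start, added after seeing the data; counting Col15a1 and Col18a1 with them or leaving out Col7a1, both chosen after seeing the data, moved no level by more than the spread between mice. By the median, the fibrillar promoters lay above the other collagens (6.72%) in the main setting and below them with that Col1a2 tile. They lay above all autosomal promoters by the median and below them by the mean. The sign of a treatment or sex difference could not change between the fits, since all of them use the same group means. The promoter levels of Col3a1, Col5a2 and Col6a1 rest on few reachable CpGs (5, 7 and 8) and, like that of Col24a1 (16), on thin coverage, and litter, cell composition and the sex ratio of the groups were not tested.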
